A study of Mus musculus with 12 samples.

Results

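The 10 genes described here belong to the mammalian circadian clock: Per1, Per2, Per3, Cry1, Cry2, Nr1d1, Nr1d2, Dbp, Clock and Npas2. Arntl, the gene of BMAL1, is not among the 10 and is described beside them. Each gene was taken by its symbol, and where several probe sets of the array carried that symbol the one with the highest mean log2 value over all 12 arrays stood for the gene. All 10 had a probe set, among 18193 genes measured in the same way. In RefSeq the genes lie on chromosomes 1 (Per2 and Npas2), 2 (Cry2), 4 (Per3), 5 (Clock), 7 (Dbp), 10 (Cry1), 11 (Per1 and Nr1d1) and 14 (Nr1d2). The values came from whole liver of male Balb/c mice, obtained at 8 weeks of age and treated after acclimatization, on Affymetrix Mouse Genome 430 2.0 arrays, 3 arrays in each of 4 groups. In the shLFAR1+CCl4 group the mice received 5% CCl4, a toxin that injures hepatocytes and leads to fibrosis, at 0.3 ml per kg by intraperitoneal injection 3 times a week, and a lentivirus carrying a hairpin meant to knock down lnc-LFAR1, a long noncoding RNA of liver. The NC+CCl4 group received the same CCl4 and a control lentivirus. The shLFAR1 and NC groups received olive oil in place of CCl4, with the hairpin virus and the control virus in turn. All 4 groups therefore carried a lentivirus, given intravenously once 2 weeks of injections had passed and so to the whole animal, not to one liver cell type, and the treatment lasted 6 weeks in all. No probe set carried the name of lnc-LFAR1, so its knockdown was not analysed here.

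The mice were kept under 12 h of light and 12 h of dark with 10 mice to a group, and the hour at which each liver was taken is not given in the sources used here. The sources do not say which of these mice the 3 arrays of a group stand for, so p-values measure the spread between these arrays. A change of a clock gene with treatment and a difference in the hour of sampling therefore cannot be told apart here. In whole liver, fewer cells of a type and less RNA per cell cannot be told apart either. The arrays were liver by their markers: the 8 hepatocyte markers measured of 10 listed, albumin among them at 14.26 to 14.47, had mean levels above at least 98% of genes. Beside NC, the dividing-cell markers (7 of 8 measured, 6 of them higher in NC+CCl4 than in NC by the test below) lay between -0.02 and 2.30 log2 units in shLFAR1+CCl4, between 1.73 and 4.13 in NC+CCl4, between -0.20 and 0.03 in shLFAR1 and between -0.04 and 0.03 in NC. A pair of arrays stood apart. Replicate 3 of shLFAR1+CCl4 had a first principal component score of 39.23, within the 34.80 to 48.79 of the NC+CCl4 arrays, whereas the other shLFAR1+CCl4 arrays were at -6.80 and -9.66. Replicate 1 of NC+CCl4 had the highest 3′ minus 5′ differences for Actb and Gapdh, 1.31 and 0.72 log2 units against 0.70 to 1.07 and -0.20 to 0.03 on the other 11 arrays, a measure of RNA integrity. Both arrays stayed in the fits, and the calls of clock genes that change without them are given.

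The clock is a transcriptional feedback loop that runs in almost every cell. CLOCK, or its relative NPAS2, pairs with BMAL1 (Arntl) and binds E-boxes to switch on the Per and Cry genes, whose proteins return to the nucleus and hold the pair back. Another loop runs through the nuclear receptors REV-ERBα (Nr1d1) and REV-ERBβ (Nr1d2), which repress Arntl, Npas2 and Clock through ROR elements, and a further one through DBP, an activator at D-boxes. In mouse liver the transcripts of Dbp, Nr1d1 and the Per genes are known to be high when Arntl and Npas2 are low, and many genes of bile acid, lipid, haem and drug metabolism follow these regulators.

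Promoters are shown for 4 of the 5 members whose upstream letters hold one of these elements (Cry2, which changed little, is described only). A link between these elements and the levels below was not tested. Windows of 250 bases upstream of the starts listed by RefSeq (GRCm38.p6) were found for 9 members, 12 windows in all, and Per2 had no entry in the table. Searched on both strands were the E-box CACGTG, the E′-box CACGTT, the D-box TTANGTAA, the ROR element core TNGGTCA and the cAMP response element TGACGTCA, and no 2 matches overlapped. Of 32851 windows of the same length, 6.02% held the E-box, 3.85% the E′-box, 2.06% the D-box, 9.19% the ROR element core and 1.55% the cAMP response element. A match fell in windows of 5 members. The Per1 window (chr11:69098699-69098948, plus strand) held 1 E-box, from base 166 to 161 before the start, and a second Per1 start held none. The Per3 window (chr4:151044666-151044915, minus strand) held 2 D-boxes and, on the opposite strand, 1 ROR element core from base 118 to 112. The Cry1 window (chr10:85185055-85185304, minus strand) held an E-box from base 60 to 55 and an E′-box from base 79 to 74, read on the opposite strand. The Nr1d1 window (chr11:98775378-98775627, minus strand) held an E′-box on the opposite strand from base 28 to 23. Cry2 held 1 E′-box and 1 ROR element core, while the windows of Nr1d2, Dbp, Clock and Npas2 held none of the 5 motifs. Sites outside these windows, within the genes or further upstream, were not searched. In the sequences below, read 5′ to 3′ along the gene's strand, capitals mark the matches.
Per1: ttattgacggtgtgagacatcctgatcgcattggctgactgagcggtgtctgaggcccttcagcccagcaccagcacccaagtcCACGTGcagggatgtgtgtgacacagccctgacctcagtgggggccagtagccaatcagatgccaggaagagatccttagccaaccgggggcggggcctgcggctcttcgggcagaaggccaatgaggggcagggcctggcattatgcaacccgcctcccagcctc
Per3: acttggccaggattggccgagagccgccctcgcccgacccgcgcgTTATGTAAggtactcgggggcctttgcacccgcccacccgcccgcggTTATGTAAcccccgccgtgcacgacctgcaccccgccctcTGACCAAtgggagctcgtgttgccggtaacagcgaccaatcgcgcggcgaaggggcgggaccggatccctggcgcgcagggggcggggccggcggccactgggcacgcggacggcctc
Cry1: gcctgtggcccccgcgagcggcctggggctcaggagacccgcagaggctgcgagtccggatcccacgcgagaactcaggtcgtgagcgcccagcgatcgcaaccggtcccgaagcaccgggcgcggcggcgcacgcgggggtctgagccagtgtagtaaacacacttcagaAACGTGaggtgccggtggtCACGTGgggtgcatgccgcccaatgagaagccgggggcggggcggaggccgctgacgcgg
Nr1d1: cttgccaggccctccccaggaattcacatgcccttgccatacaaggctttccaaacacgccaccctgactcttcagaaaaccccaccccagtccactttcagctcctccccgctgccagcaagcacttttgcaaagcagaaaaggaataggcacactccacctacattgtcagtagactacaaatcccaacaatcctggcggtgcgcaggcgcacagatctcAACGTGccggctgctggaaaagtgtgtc

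Nr1d1 and Nr1d2, the REV-ERB repressors, were the only members called in any comparison, both lower in NC+CCl4 livers than in NC livers. Nr1d1 (GRCm38.p6 chromosome 11, 98767932 to 98775377) had log2 values of 5.79, 5.86 and 4.62 in the NC+CCl4 arrays and 6.26, 6.67 and 6.41 in the NC arrays. All 3 NC+CCl4 arrays lay below all 3 NC arrays, and replicate 3 lay furthest below. The difference was -1.03 ± 0.28 log2 units (SE), a 2.04-fold lower level (limma, adjusted p = 0.0302 over all genes). Nr1d2 (chromosome 14, 18204056 to 18239106) had 8.12, 9.65 and 8.88 in NC+CCl4 and 10.03, 9.68 and 9.88 in NC. Replicate 2 of NC+CCl4 lay just below the lowest NC array, and the low values were those of replicates 1 and 3. The difference was -0.98 ± 0.29 log2 units, 1.97-fold lower (limma, adjusted p = 0.0430). A second Nr1d2 probe set, dimmer, gave -0.80 with an adjusted p of 0.0551 over all probe sets (limma).

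Both calls were close to the threshold. The Nr1d1 call was lost without replicate 1, 2 or 3 of NC (limma adjusted p = 0.0590, 0.111 and 0.0705) and without replicate 3 of NC+CCl4 (-0.63, adjusted p = 0.0587). The Nr1d2 call was lost without replicate 1 of NC+CCl4 (-0.60, adjusted p = 0.109), the array with the high 3′ minus 5′ differences, and also without replicate 3 of NC+CCl4, any NC or shLFAR1 replicate or replicate 2 of shLFAR1+CCl4 (0.0558 to 0.134). Over 26 alternatives Nr1d1 was called in 19, with adjusted p between 0.0120 and 0.302, and Nr1d2 in 10, between 0.00279 and 0.346. The sign was negative in every one of these fits for both genes.

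In the knockdown groups the pair did not stand at the same levels. Nr1d1 had 6.28, 6.92 and 6.37 in shLFAR1+CCl4 and 7.17, 7.13 and 7.12 in shLFAR1. The 3 shLFAR1 arrays were the highest of all 12 and lay within 0.045 log2 units of each other, and the 3 shLFAR1+CCl4 arrays lay below them. The change was -0.61 ± 0.28 (limma, unadjusted p = 0.0471, adjusted p = 0.454). Nr1d1 was higher in shLFAR1 than in NC by 0.69 ± 0.28 with no overlap (limma, unadjusted p = 0.0285, adjusted p = 1.00). Nr1d2 had 9.77, 10.11 and 10.40 in shLFAR1+CCl4 and 9.98, 9.75 and 9.99 in shLFAR1, groups that overlap (0.18 ± 0.29, limma, adjusted p = 0.888). Set against NC+CCl4, the shLFAR1+CCl4 livers had higher Nr1d1 by 1.10 ± 0.28 and higher Nr1d2 by 1.21 ± 0.29, with no overlap for either gene (limma, unadjusted p = 0.00178 and 0.00121, adjusted p = 0.104 and 0.0956). Nr1d1 passed in this comparison without replicate 2 of NC+CCl4 (1.32, adjusted p = 0.0331), without replicate 3 of shLFAR1+CCl4 (1.18, adjusted p = 0.0407) and without both arrays that stand apart (1.36, adjusted p = 0.0267). Nr1d2 passed only without replicate 2 of NC+CCl4 (1.59, adjusted p = 0.00367). The difference between the 2 CCl4 responses was 0.41 ± 0.39 for Nr1d1 and 1.16 ± 0.41 for Nr1d2 (limma, adjusted p = 0.791 and 0.408), and without replicate 2 of NC+CCl4 that of Nr1d2 passed (1.55, adjusted p = 0.0403).

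**Figure D1:**
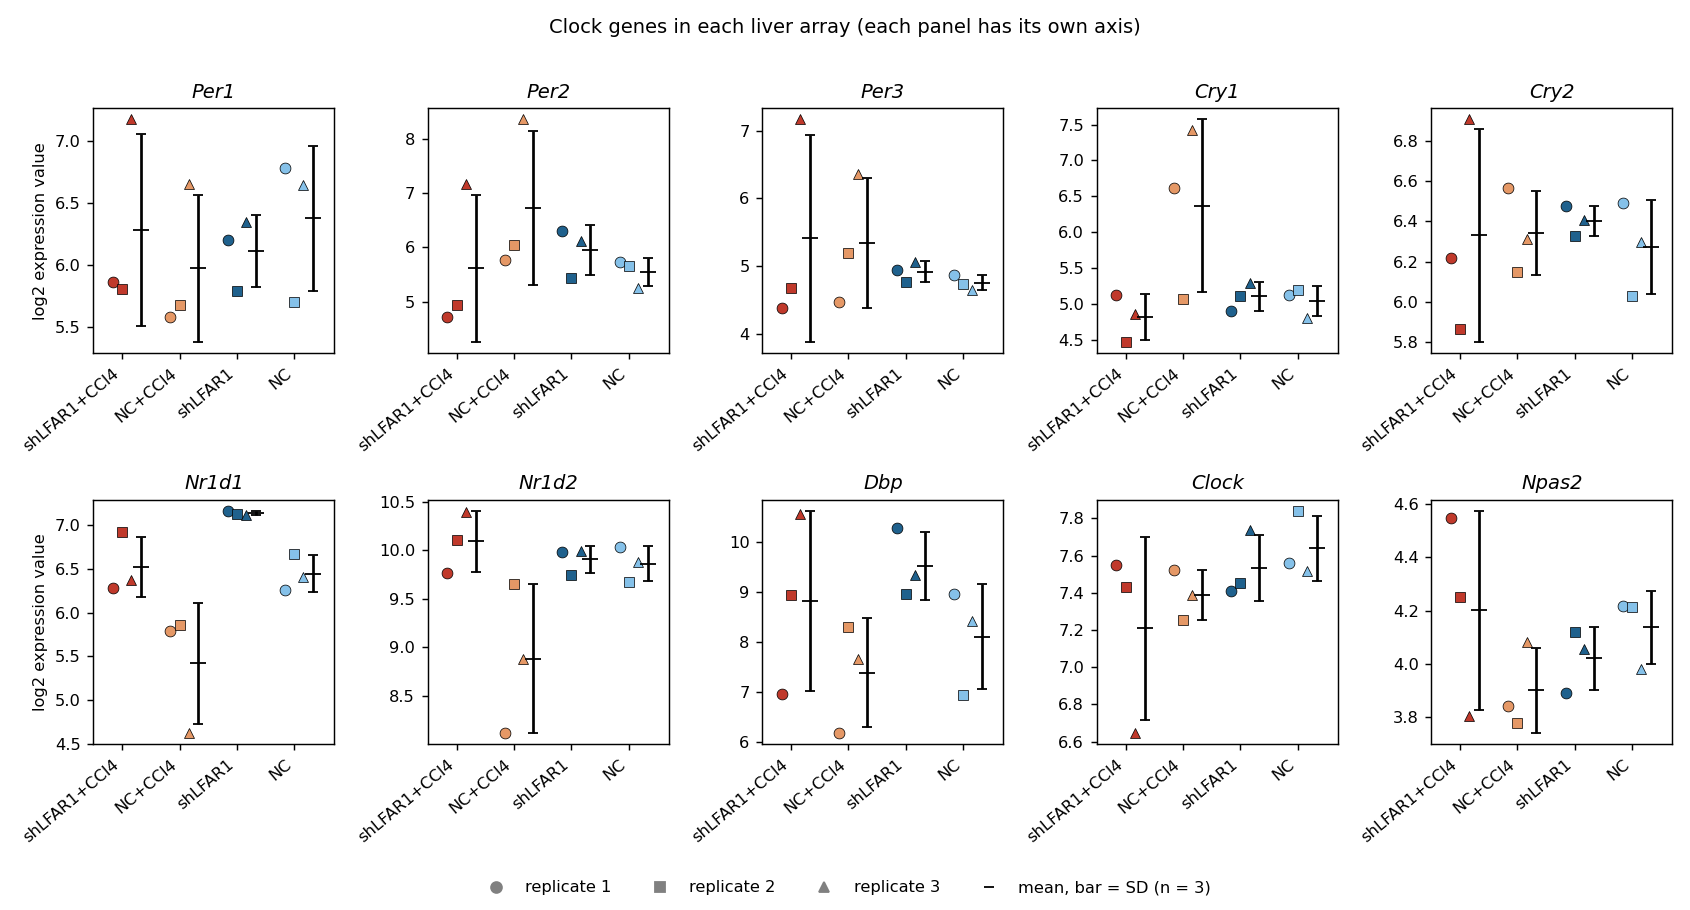
Log2 expression value of each of the 10 clock genes on every array, by group, with the marker shape giving the replicate number and the bar the mean with its SD (n = 3 each). Nr1d1 and Nr1d2 are lower in all NC+CCl4 arrays than in NC, and replicate 3 of both CCl4 groups is the highest of its group for Per1, Per2 and Per3.

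Cry1 encodes a cryptochrome, a strong repressor of the CLOCK:BMAL1 pair. In NC+CCl4 it had log2 values of 6.62, 5.07 and 7.43, against 5.13, 5.20 and 4.80 in NC. Replicates 1 and 3 of NC+CCl4 stood above every other array of the study, while replicate 2 lay among the NC arrays. The difference was 1.33 ± 0.43 (limma, unadjusted p = 0.00878, adjusted p = 0.0610). In shLFAR1+CCl4 Cry1 had 5.12, 4.47 and 4.86, and in shLFAR1 4.90, 5.12 and 5.30, which overlap (-0.29 ± 0.43, limma, adjusted p = 0.879). Cry1 was lower in shLFAR1+CCl4 than in NC+CCl4 by a change of -1.55 ± 0.43 (limma, adjusted p = 0.125), and the difference between the CCl4 responses was -1.62 ± 0.61 (adjusted p = 0.423). These values passed without replicate 2 of NC+CCl4, where they were 1.98, -2.21 and -2.27 (limma, adjusted p = 0.000899, 0.00176 and 0.0193), and with all 12 arrays the difference from NC passed with array weights (1.31, adjusted p = 0.0429). The 2 arrays with high Cry1 were also those with the highest dividing-cell markers, at 4.13 and 3.88 log2 units above NC, against 1.73 on replicate 2 of NC+CCl4 and 2.30 on replicate 3 of shLFAR1+CCl4. The part of dividing cells in the Cry1 level was not tested. Cry2, the second cryptochrome, had values between 5.86 and 6.91 in shLFAR1+CCl4, 6.15 and 6.57 in NC+CCl4, 6.33 and 6.48 in shLFAR1 and 6.03 and 6.49 in NC, and its changes lay between -0.07 and 0.13 in the 4 pairwise comparisons.

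The Per genes encode the PERIOD proteins, which carry the cryptochromes into the repressor complex, and Per1 and Per2 are also switched on directly by glucocorticoid and cAMP signals. Per2 had 4.73, 4.94 and 7.17 in shLFAR1+CCl4, 5.77, 6.04 and 8.36 in NC+CCl4, 6.30, 5.44 and 6.12 in shLFAR1 and 5.74, 5.66 and 5.26 in NC. Per3 had 4.39, 4.68 and 7.17 in shLFAR1+CCl4, 4.47, 5.19 and 6.36 in NC+CCl4, 4.94, 4.76 and 5.06 in shLFAR1 and 4.87, 4.73 and 4.65 in NC. In both CCl4 groups replicate 3 was far above its 2 companions for both genes. The oil groups lay within narrow limits for Per3, while Per2 ranged over 0.86 within shLFAR1. Per1 was also highest on replicate 3 of both CCl4 groups, but its NC arrays lay as far apart as its NC+CCl4 arrays: 5.86, 5.81 and 7.17 in shLFAR1+CCl4, 5.58, 5.68 and 6.66 in NC+CCl4, 6.20, 5.79 and 6.34 in shLFAR1 and 6.78, 5.70 and 6.65 in NC. Replicate 2 was the lowest Per1 array in both oil groups, and replicate 1 of NC stood above replicate 3 of NC+CCl4. Per2 did not overlap between NC+CCl4 and NC, with a difference of 1.17 ± 0.67 (limma, adjusted p = 0.292), and without replicate 3 of NC+CCl4 the difference was 0.35. No Per gene passed in any comparison on all 12 arrays, with adjusted p from 0.292 to 1.00.

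Whether Per2 and Per3 passed depended on which arrays were fitted. Between same-numbered arrays Per2 was lower in shLFAR1+CCl4 than in NC+CCl4 each time, with differences of -1.04, -1.10 and -1.19, whereas those of Per3 were -0.08, -0.52 and 0.80. Fitted on the CCl4 groups alone with the replicate number as a block, the Per2 change of -1.11 had an adjusted p of 0.198 (limma). With both arrays that stand apart left out, Per2 was higher in NC+CCl4 than in NC by 1.65 and Per3 by 1.03 (limma, adjusted p = 0.0468 and 0.0220), and both were lower in shLFAR1+CCl4 than in NC+CCl4, with changes of -2.36 and -1.25 (adjusted p = 0.0239 and 0.0237), where on all arrays the change of Per3 was 0.07 ± 0.60. With both CCl4 replicates 3 left out, Per2 was lower in shLFAR1+CCl4 than in NC+CCl4 (-1.07, adjusted p = 0.0300), its difference between CCl4 responses was -1.47 (adjusted p = 0.0338), and its difference between NC+CCl4 and NC, which was positive in all alternatives, did not pass. The high Per3 on replicate 3 of shLFAR1+CCl4 was shared by 4 further probe sets, each highest there (between 4.80 and 6.39). The dimmest set (mean 3.23) ranged over 0.45 log2 units. In NC+CCl4 the 4 sets read 4.18 to 4.83 on replicate 3 and 4.08 to 4.61 on replicate 2, so the rise there was smaller. One of them ranged from 3.73 to 4.66 within shLFAR1. All 3 Per2 probe sets had replicate 3 of NC+CCl4 as their highest array, at 8.36, 5.86 and 6.30, but the 2 dimmer sets gave smaller differences, of -0.003 and 0.56 in NC+CCl4 against NC and -0.02 and -0.38 in shLFAR1+CCl4 against NC+CCl4.

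Dbp encodes a D-box activator that is a direct target of CLOCK:BMAL1 and is known for one of the deepest daily rhythms in liver. It had 6.96, 8.94 and 10.56 in shLFAR1+CCl4, 6.18, 8.30 and 7.67 in NC+CCl4, 10.27, 8.95 and 9.34 in shLFAR1 and 8.97, 6.94 and 8.42 in NC. The range over 12 arrays was 4.38 log2 units, 20.8-fold, and within the shLFAR1+CCl4 group alone 12.1-fold. Group means were 8.82 ± 1.80 in shLFAR1+CCl4, 7.38 ± 1.09 in NC+CCl4, 9.52 ± 0.68 in shLFAR1 and 8.11 ± 1.05 in NC (SD, n = 3 each). The order placed shLFAR1 highest and NC+CCl4 lowest, yet neighbouring groups in it overlapped in every case. Dbp was 1.41 ± 0.81 higher in shLFAR1 than in NC and 1.43 ± 0.81 higher in shLFAR1+CCl4 than in NC+CCl4, differences within the spread between arrays (limma, adjusted p = 1.00 and 0.467). A second probe set for Dbp gave the same 2 differences as 1.40 and 1.31.

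Clock and Npas2, the DNA-binding partners of BMAL1, moved little. Clock lay between 6.65 and 7.55 in shLFAR1+CCl4, 7.25 and 7.52 in NC+CCl4, 7.41 and 7.74 in shLFAR1 and 7.52 and 7.84 in NC. The lowest value was that of replicate 3 of shLFAR1+CCl4, the array with the highest Dbp, and 2 other Clock probe sets of similar brightness were also lowest there (6.08 and 6.57). Npas2 was dim, between 3.78 and 4.55 on all arrays, with a mean level above 27.6% of genes. A second Npas2 probe set, with a lower mean, read 6.12 on replicate 1 of NC+CCl4 and between 3.11 and 4.43 on the other 11 arrays. On that array Arntl, the gene of BMAL1, was also at its highest, 8.31 against 5.13 to 7.42 elsewhere. The changes of Clock were between -0.32 and -0.11 and those of Npas2 between -0.24 and 0.30 in the 4 pairwise comparisons, none called.

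Counted over the 10 members, calls were few. In NC+CCl4 against NC, 2 members were lower and none higher, where 13.1% of all genes were called and 5.41% were called lower. At an unadjusted p under 0.05 the count was 3 (Cry1, Nr1d1 and Nr1d2), against 27.1% of all genes, and 3 members did not overlap (Per2, Nr1d1 and Nr1d2), against 29.6%, so both counts lay near the shares of all genes. The median change of the members was -0.24, beside -0.05 over all genes, and the median size was 0.66 beside 0.17. With each array centred on its median, the median over all genes was -0.19 and 71.8% of the called genes were lower, against 41.4% on the deposited scale, and both REV-ERB genes were still called. In shLFAR1+CCl4 against shLFAR1 no member was called (limma, 0.407% of all genes), 1 had an unadjusted p under 0.05 (10.8% of all genes) and 1 did not overlap (20.1%), Nr1d1 in each case. In shLFAR1+CCl4 against NC+CCl4 no member was called (0.291%), 3 had an unadjusted p under 0.05 (14.2%), namely Cry1, Nr1d1 and Nr1d2, and 2 did not overlap (12.3%), Nr1d1 and Nr1d2. In shLFAR1 against NC no member and no other gene was called by limma (0%), and Nr1d1 alone had an unadjusted p under 0.05 (2.77%) and did not overlap (10.8%). For the difference between the CCl4 responses no member was called (0.022%), and Cry1 and Nr1d2 had an unadjusted p under 0.05 (9.51%). The comparisons share groups and are not independent of each other.

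**Figure D2:**
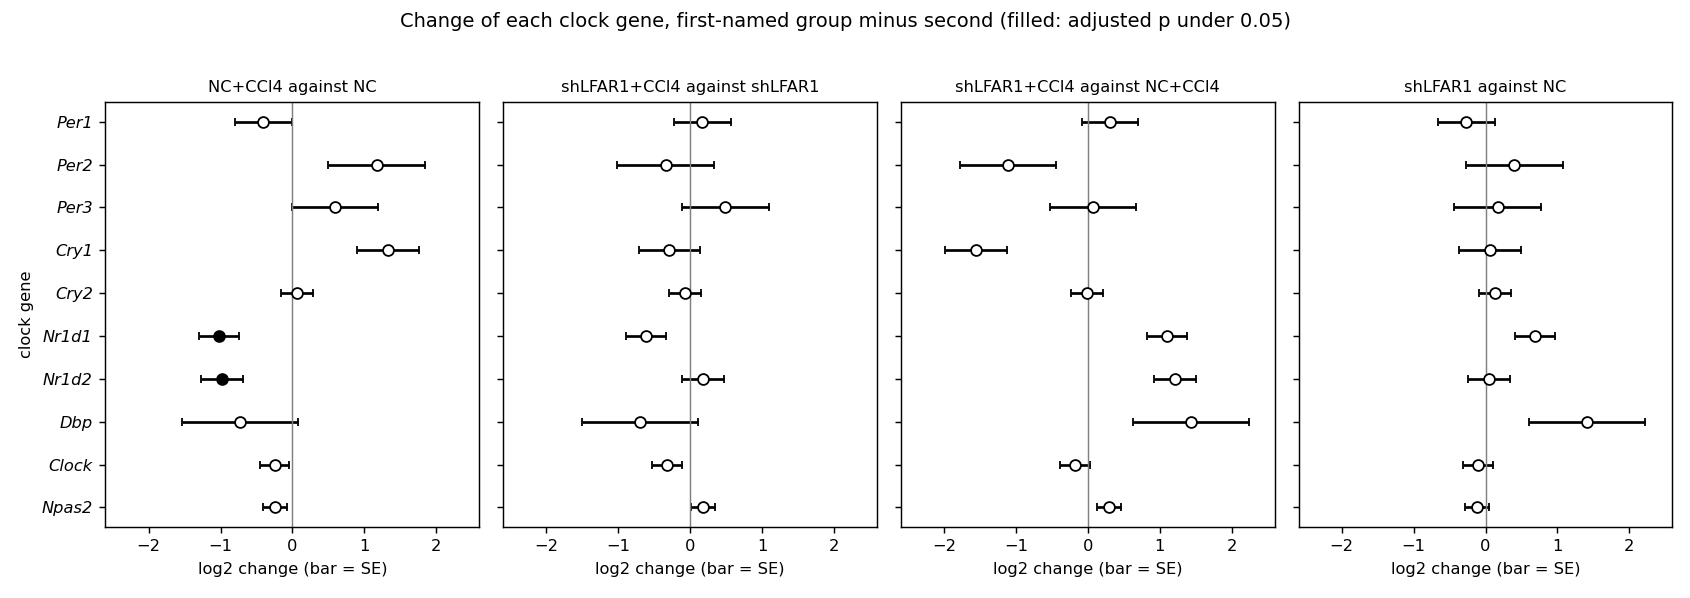
Log2 change of each clock gene (x axis, first-named group minus second, bar = SE from the fit over 12 arrays) in the 4 pairwise comparisons, with filled points for adjusted p under 0.05. Nr1d1 (-1.03) and Nr1d2 (-0.98) in NC+CCl4 against NC are the only filled points, and the bars of Dbp (SE 0.81) and Per2 (SE 0.67) are the widest.

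The clock genes had a wide spread between arrays of the same group. The SD within groups, pooled over the 4 groups, was 1.22 log2 units for Dbp, higher than in 99.8% of the 18193 genes (rank 28). It was 1.01 for Per2, 0.91 for Per3, 0.64 for Cry1 and 0.59 for Per1, each above at least 98% of genes, 0.43 for Nr1d2 and 0.40 for Nr1d1, and 0.31, 0.28 and 0.22 for Cry2, Clock and Npas2, while the median gene had 0.16. In all, 7 of 10 members exceeded 90% of genes. The count was 7 without both arrays that stand apart, 5 without both CCl4 replicates 3, 9 with the mean of all probe sets of a gene and 8 with the probe set of largest SD. The spread was larger in the CCl4 groups, where 8 members exceeded 90% of genes, than in the oil groups, where 3 did (Per1, Per2 and Dbp). Per3 showed this most plainly, with an SD of 1.27 within the CCl4 groups, above 99.6% of genes, and 0.13 within the oil groups, above 50.1%. Nr1d1 had 0.55 within the CCl4 groups and 0.15 within the oil groups. These percentiles are descriptions, and no test was made of them.

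**Figure D3:**
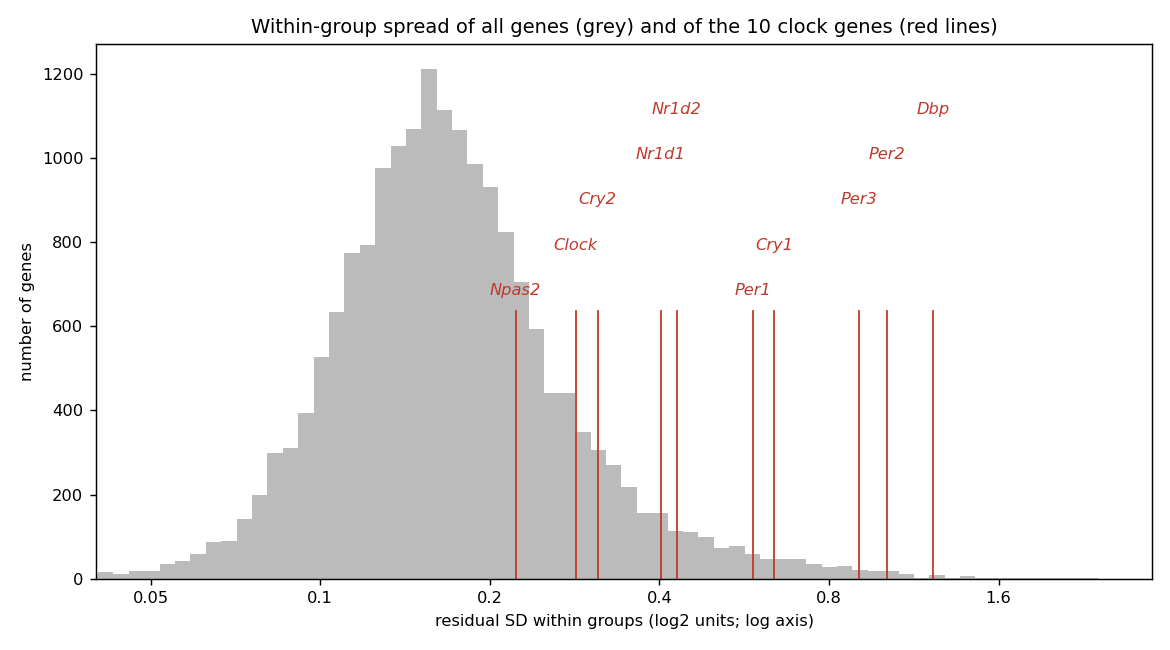
Number of genes (y axis) by the SD within groups in log2 units (x axis, log scale) for all 18193 genes in grey, with a red line for each clock gene. Npas2 (0.22) lies in the flank of the distribution, and Per3, Per2 and Dbp (0.91, 1.01 and 1.22) lie in its far right tail.

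Several members had their extremes on the same arrays. Replicate 3 of shLFAR1+CCl4 was the highest of its group for 6 members, Per1, Per2, Per3, Cry2, Nr1d2 and Dbp, and the lowest for Clock and Npas2. Against the mean of 12 arrays it stood at 1.21 for Per2, 2.06 for Per3, 2.10 for Dbp, 0.99 for Per1 and -0.80 for Clock. Some genes outside the 10 that belong to the same loops went with it: Tef, a relative of Dbp, and Ciart, a repressor of CLOCK:BMAL1, had their highest values there (10.27 and 6.60), and Arntl its lowest (5.13). Others did not: Hlf was at 7.569 there, below the 7.595 of replicate 1 of that group, and Bhlhe41 had its lowest value of all arrays (3.52). Replicate 1 of NC+CCl4 was the reverse case, with the highest Arntl of the study, the lowest Dbp (6.18), Per1 (5.58), Nr1d2 (8.12) and Tef (8.41), and a low Ciart (4.80, with only replicate 2 of shLFAR1 lower). Replicate 1 of shLFAR1 held the lowest Arntl but one (5.50) and the highest Dbp but one (10.27). In all 4 groups the array with the highest Arntl was the array with the lowest Dbp and the lowest Nr1d2, and in 3 of 4 groups the array with the lowest Arntl had the highest Dbp. Per2 was highest where Arntl was lowest in 4 of 4 groups, and Per1 and Per3 in 3 of 4. Cry2 was highest where Arntl was lowest in 3 of 4 groups, Nr1d2 and Npas2 in 2 of 4, and Nr1d1 and Cry1 in 1. Nr1d1 was also lowest where Arntl was highest in 1 of 4 groups only, so it did not share this order, and Clock did so in 0 of 4 either way. A second, dimmer Arntl probe set ranged over 0.49 log2 units, against 3.17 for the first. In NC+CCl4 it was highest on replicate 2 (4.97, against 4.94 on replicate 1), and in the other groups on the same arrays as the first. With 3 arrays to a group these are orders, given without a test, and both arrays that stand apart are among those at the ends of the range.

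**Figure D4:**
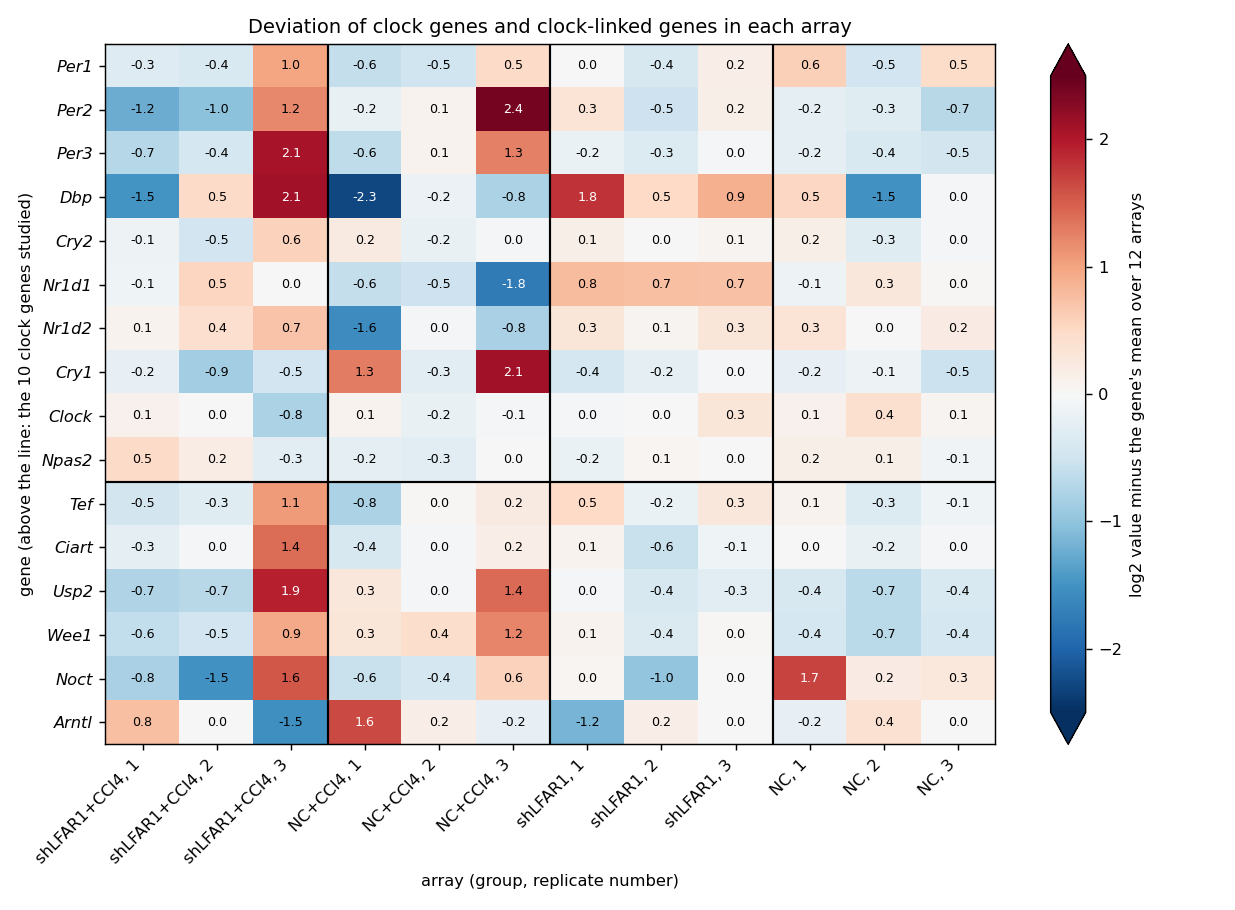
Deviation of each gene from its own mean over 12 arrays in log2 units (colour and printed value) for the 10 clock genes, above the line, and 6 genes of the same loops and their outputs, below it, with arrays in columns by group and replicate number. Replicate 3 of shLFAR1+CCl4 is high for the Per genes, Dbp, Tef and Ciart and low for Arntl and Clock, and replicate 3 of NC+CCl4 is high for Per2 (2.39), Cry1 and Per3 but not for Dbp.

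**Figure D5:**
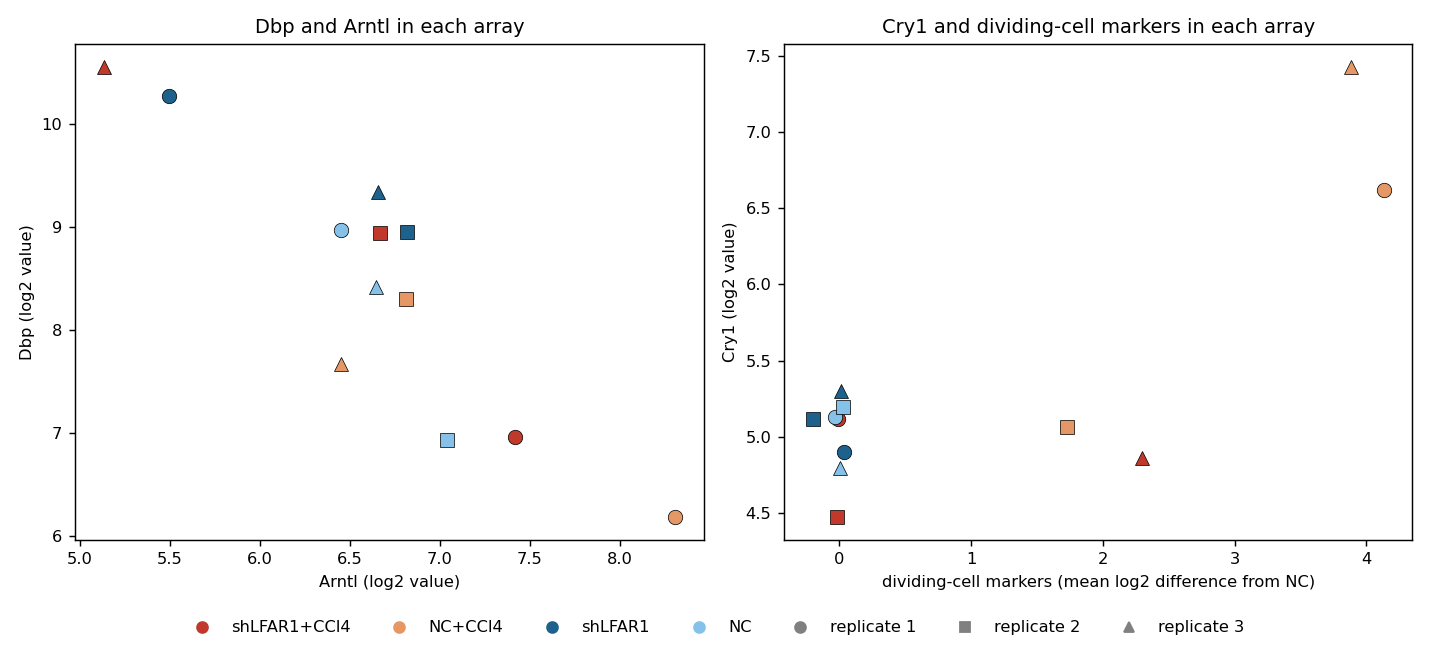
Log2 value of Dbp against Arntl (left) and of Cry1 against the mean of the dividing-cell markers as a difference from NC (right), 1 point per array, coloured by group. The array with the lowest Arntl (5.13) has the highest Dbp (10.56) and the array with the highest Arntl (8.31) the lowest Dbp (6.18), and the 2 NC+CCl4 arrays with markers at 3.88 and 4.13 stand apart in Cry1.

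Replicate 3 of NC+CCl4 differed from replicate 3 of shLFAR1+CCl4 in this pattern. It was the highest of all arrays for Per2 (8.36) and Cry1 (7.43) and the lowest for Nr1d1 (4.62), but its Dbp (7.67) lay below the mean of all arrays and its Arntl (6.45) near it. Usp2, a clock-driven deubiquitinase, Wee1, a cell cycle kinase under CLOCK:BMAL1, and Alas1, the first enzyme of haem synthesis, were the highest of their group in replicate 3 of both CCl4 groups, at 8.33 and 7.79 for Usp2, 7.54 and 7.82 for Wee1 and 12.24 and 12.30 for Alas1. Elovl3, a fatty acid elongase with a strong daily rhythm in mouse liver, was at 2.96 in replicate 3 of shLFAR1+CCl4 and 2.98 in replicate 3 of NC+CCl4. Replicates 1 and 2 read 9.21 and 10.45 in shLFAR1+CCl4 and 8.155 and 6.05 in NC+CCl4, and the oil arrays 10.11 to 11.85. Elovl3 did not overlap between NC+CCl4 and NC (-4.83 ± 1.58, limma, adjusted p = 0.0648) or between shLFAR1+CCl4 and shLFAR1 (-3.99 ± 1.58, limma, adjusted p = 0.376). Its SD within groups was the highest of all 18193 genes.

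The genes whose pattern over 12 arrays was most like that of a called member were found by the root mean square difference between deviations from each gene's mean. For Nr1d1 they were Enho (0.29 log2 units), Sntg2, Asic5, Gm20319 and Abcg8 (up to 0.37), beside a deviation of 0.70 for Nr1d1 itself. For Nr1d2 they were Slc2a5 (0.29), Slc7a2, Ppara, AY036118 and Marf1 (up to 0.31), beside 0.59. The same measure was taken for the other members with an SD over 0.5, a choice made after the values were seen. Nearest to Cry1 were Skp2 (0.28), Mcm7, Rfc4, 4930579G24Rik and Prim1, and nearest to Per2 were Tnnc1 (0.42), Bex1, Mcm2, Ccne2 and Uhrf1. Nearest to Per3 was Usp2 (0.31), nearest to Per1 were St3gal5 (0.18), Il6ra, Zfp385b, Lpin1 and Tef, and Dbp had Upp2 (0.74), Tef (0.92) and Nr1d2 (0.92).

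Of the other genes of the loops, 16 of 18 were analysed here, and 4 passed in NC+CCl4 against NC, beside 13.1% of all genes. Csnk1e, a casein kinase that marks PER proteins for turnover, was higher by 0.60 ± 0.17 (6.49, 6.40 and 6.52 in NC+CCl4, against 5.97, 5.76 and 5.88 in NC) and Nono, a partner of PER, by 0.29 ± 0.09. Btrc and Fbxl21, which belong to ubiquitin ligases that act on PER and CRY proteins, were lower (-0.52 ± 0.13 and -0.54 ± 0.16; limma, adjusted p between 0.0183 and 0.0463 for the 4 genes). The median change of the list was 0.03, beside -0.05 over all genes. Arntl was not among the genes called (0.48 ± 0.57 in NC+CCl4 against NC, limma, adjusted p = 0.639), and no gene of the list passed in the other comparisons, where 0 to 2 had an unadjusted p under 0.05. Btrc and Fbxl21 were dim, with mean levels above 43.2% and 28.8% of genes, and the alternative that filters dim genes removed them. Csnk1e was called in 13 and Nono in 9 of 26 alternatives, Btrc in 16 and Fbxl21 in 12 of 25. None of the 4 passed without replicate 1 or 2 of NC or without replicate 3 of NC+CCl4. The Csnk1e and Nono calls were also lost with each array centred on its median, and those of Btrc and Nono with the mean of all probe sets.

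Of the 20 clock output genes 18 were analysed here, and 2 rose and 4 fell in NC+CCl4 against NC, beside 13.1% of all genes called. Wee1 rose by 1.18 ± 0.35 (6.90, 7.04 and 7.82 in NC+CCl4, against 6.16, 5.92 and 6.15 in NC) and Tfrc, the transferrin receptor, by 1.18 ± 0.22. Those that fell were Pck1, the gluconeogenic phosphoenolpyruvate carboxykinase (-1.55 ± 0.30), Ces2a, a carboxylesterase (-1.19 ± 0.10), Nr1i3, the xenobiotic receptor CAR (-0.97 ± 0.14), and Ppara, the fatty acid receptor (-0.69 ± 0.21), with limma adjusted p between 9.85e-05 and 0.0498 over the 6. Ces2a was at 11.89, 12.00 and 11.63 in shLFAR1+CCl4 and 10.93, 10.85 and 11.02 in NC+CCl4, higher by 0.90 ± 0.10 (limma, adjusted p = 0.00537), the one gene of the list to pass there, and its adjusted p was 0.198 with the CCl4 groups alone and the replicate number as a block. The median change of the list in NC+CCl4 against NC was -0.19, and 11 of the 18 exceeded 90% of genes in SD within groups. Over 26 alternatives Ppara was called in 7, not without both arrays that stand apart, and Wee1 in 13, while Nr1i3 and Pck1 were called in 25 and Ces2a in 26. Tfrc was called in 24, and with the mean of all probe sets its change was 0.38, not called. The count of output genes called ranged from 1 with the methods' t-test, adjusted, to 10 without both arrays that stand apart.

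Genes that report on glucocorticoid, temperature and feeding cues were set beside the members. Whether these cues themselves differed with the hour of sampling cannot be told here. Of the 4 glucocorticoid targets, Tsc22d3, Fkbp5, Sgk1 and Zbtb16, none passed in any comparison (limma). In NC+CCl4 against NC 1 had an unadjusted p under 0.05 (27.1% of all genes), and in shLFAR1+CCl4 against shLFAR1 1 (10.8%). In shLFAR1+CCl4 against NC+CCl4 there were 2 (14.2%), Sgk1 (-0.74 ± 0.34) and Zbtb16 (0.66 ± 0.23), and in the other comparisons 0. Fkbp5 was the highest of its group on replicate 3 of shLFAR1+CCl4 (8.71, against 7.01 and 7.38 on the other arrays of the group) and of NC+CCl4 (8.06, against 7.19 and 6.98), as the Per genes were. The other targets were also highest of their group on replicate 3 of shLFAR1+CCl4. Tsc22d3 was at 9.992 there (9.975 and 8.855 on replicates 1 and 2), Sgk1 at 8.67 (7.77 and 7.08) and Zbtb16 at 6.77 (6.13 and 6.65). In NC+CCl4 they differed, with Tsc22d3 highest on replicate 2 (10.10), Sgk1 on replicate 1 (8.69) and Zbtb16 on replicate 3 (6.01). Of the 7 temperature and heat shock genes measured, Dnajb1 alone was called in NC+CCl4 against NC, beside 13.1% of all genes. Its change was -1.08 ± 0.31 (limma, adjusted p = 0.0365), a call lost without both arrays that stand apart. In shLFAR1+CCl4 against shLFAR1 none of the list was called (0.407% of all genes). There 4 had an unadjusted p under 0.05 (limma, 10.8% of all genes) and 6 did not overlap (20.1%). The median change of the list there was -0.88, beside -0.03 over all genes. Cirbp, a cold-induced RNA-binding protein, was lowest on replicate 3 of NC+CCl4 (5.01, against 6.21 to 7.59 on the other 11 arrays). Of the 5 genes that follow feeding, 2 rose and 1 fell in NC+CCl4 against NC, beside 13.1% of all genes called. Pdk4, which spares glucose in fasting, rose by 2.55 ± 0.39 (limma, adjusted p = 0.00206). Srebf1, the driver of lipid synthesis after a meal, rose by 1.25 ± 0.28 (limma, adjusted p = 0.0112). Angptl4, a fasting-induced lipase inhibitor, fell by 0.87 ± 0.24 (limma, adjusted p = 0.0300). The part of these cues in the levels of the clock genes was not tested.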

How the data were processed

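Liver RNA of 4 groups (3 arrays each) had been measured on Affymetrix Mouse Genome 430 2.0 arrays. The authors deposited log2 values, 1 column per array, and the software that summarised and normalised them is not given in the sources used here. The array medians lay between 4.42 and 4.50 and the means between 5.10 and 5.11. Of 45101 probe sets, 64 controls were left out, 34958 carried 1 gene symbol in the platform annotation, 932 several and 9211 none, and the brightest probe set on average stood for each gene, which left 18193 genes.

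One model with 4 group means was fitted across all genes with limma 3.58.1 (lmFit and eBayes with an intensity trend, 8 residual degrees of freedom, R 4.3.3), two-sided, with Benjamini-Hochberg adjustment over all genes and calls at an adjusted p under 0.05. Differences are log2 values with their SE. Simulated data for the comparison of NC+CCl4 with NC over 18193 genes, with 200 changed, gave back 90% of genes changed by 1 log2 unit and 98% of those changed by 2, and 5.53% of calls were false. The changed genes were drawn at random from all genes, with normal noise at each gene's own SD within groups and no array set apart. The median gene had an SD of 0.16, below that of every member (0.22 to 1.22). These shares therefore do not give the recovery for the clock genes. Precision is limited by how many arrays there are.

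The members and the gene lists were chosen with earlier results of these data known. Named were the 10 members, every called gene among the other loop genes, the called genes of the other lists with the largest changes (up to 4 in each comparison) and the 5 genes most like each called member. Arntl, Tef, Ciart, Hlf, Bhlhe41, Usp2, Noct, Alas1, Elovl3, Fkbp5, Cirbp, Nr1i3 and Ppara were named after their values were seen. Some listed genes are not reported here. Marker lists for 8 cell types served to describe the arrays, by the mean of their genes as a difference from NC. The mean of the dividing-cell list was also set beside Cry1. Stellate cell and myofibroblast markers (10 measured) lay between 0.36 and 1.62 in shLFAR1+CCl4, 1.74 and 1.86 in NC+CCl4, -0.32 and 0.36 in shLFAR1 and -0.17 and 0.12 in NC. In the same order, macrophage markers (10) had medians of 0.66, 1.47, 0.02 and -0.05, neutrophil markers (6) 1.12, 1.15, 0.01 and -0.04, endothelial markers (8) -0.03, 0.22, 0.02 and -0.01, bile duct markers (7) 0.04, 0.09, 0.08 and 0.03, T and B cell markers (7) 0.10, 0.01, 0.02 and 0.04, and hepatocyte markers (8) 0.13, 0.03, -0.01 and 0.00.

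Replicate numbers shared between groups were checked by the correlation of deviations from the group means over all genes. Same-numbered arrays of shLFAR1+CCl4 and NC+CCl4 correlated at 0.13 to 0.23, other pairs of these groups at -0.23 to 0.09, and in no other pair of groups were all 3 correlations over 0.1. Tried as alternatives were other probe set rules, quantile normalization, median centring, a filter on dim genes, eBayes without the trend or robust, array weights, only the groups compared, a replicate block, the methods' t-test and leaving out each array, with 3 more added after the data were seen, one of them the CCl4 groups alone with the replicate block. Promoter windows came from RefSeq.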

Additional observations from a re-analysis of the deposited data

Results flagged for a closer look

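Ces2a, a carboxylesterase counted among the clock output genes, was the single gene of the lists whose CCl4 response differed between the virus groups. The difference was 1.03 ± 0.14 log2 units (limma, adjusted p = 0.0392), the response being -0.15 in the shLFAR1 groups and -1.19 in the NC groups. Ces2a had 11.89, 12.00 and 11.63 in shLFAR1+CCl4, 10.93, 10.85 and 11.02 in NC+CCl4, 12.00, 11.91 and 12.07 in shLFAR1 and 12.14, 12.24 and 11.98 in NC. Over 23 alternatives the adjusted p lay between 0.000382 and 0.207, with 11 of them calling the difference. None of the 10 clock genes was flagged on all 12 arrays.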

How the results depend on the processing

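The 2 clock genes called in NC+CCl4 against NC were 1 (Nr1d1) with quantile normalization, with robust eBayes and without both CCl4 replicates 3, 0 with only the groups compared and with the methods' t-test, adjusted or at the study's threshold, 3 with array weights (Cry1 added) and 3 without both arrays that stand apart (Nr1d1, Per2 and Per3), and 0 to 3 when 1 array was left out. Both genes kept a negative change in all 26 alternatives. In shLFAR1+CCl4 against NC+CCl4 the count, 0 on all arrays, was 1 with array weights (Nr1d1), 3 without both arrays that stand apart (Nr1d1, Per2 and Per3), 3 without both CCl4 replicates 3 (Npas2, Nr1d1 and Per2) and 0 to 3 when 1 array was left out. Per3 in this comparison turned to -1.25 without both arrays that stand apart, and the cause was not tested. In shLFAR1 against NC it was 1 (Nr1d1) by the methods' t-test at the study's threshold. For the difference between CCl4 responses it was 1 (Per2) without both CCl4 replicates 3 and 0 to 2 when 1 array was left out. In shLFAR1+CCl4 against shLFAR1 it was 0 in every alternative.

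With the CCl4 groups alone and the replicate block no clock gene was called in shLFAR1+CCl4 against NC+CCl4. With the replicate block in all 4 groups the counts were 2 in NC+CCl4 against NC and 0 in the other 4 comparisons, and the block changed no call of a clock gene, while Nono, Ppara and the Ces2a difference between responses lost theirs. The other loop genes called in NC+CCl4 against NC ranged from 0 to 4 and the output genes from 1 to 10 over the alternatives. All genes called there numbered 2378, with 280 by the methods' t-test, adjusted, 1262 at the study's threshold and 4087 with median centring. In shLFAR1+CCl4 against NC+CCl4 they numbered 53, with 0 by the methods' t-test, adjusted, with only the groups compared and with the CCl4 groups alone and the replicate block, 4 and 8 without replicate 1 or 2 of shLFAR1+CCl4, 546 without replicate 2 of NC+CCl4, 1327 without replicate 3 of shLFAR1+CCl4, 1541 without both arrays that stand apart, 1236 without both CCl4 replicates 3 and 919 with array weights. In shLFAR1+CCl4 against shLFAR1 they numbered 74 and ranged from 0 to 375, in shLFAR1 against NC 0 (0 to 31), and for the difference between responses 4 (0 to 776). The difference between responses could not be had from the t-test or from the groups compared alone. The filter on dim genes removed Per3 and Npas2, and also the called loop genes Btrc and Fbxl21.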
